A study of Mus musculus with 2 samples.

Results

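The 9 genes *Ccl3*, *Ccl4*, *Ccl2*, *Ccl12*, *Cxcl10*, *Tnf*, *Il1a*, *Il1b*, and *Nfkbia* were followed through single-cell RNA-Seq data of whole mouse retina, as 9 of the 32285 genes in the annotation used for counting. They were chosen by measured values: *Ccl3* and *Ccl4* led the genes of a macrophage- or microglia-like cluster in an earlier analysis of the same barcodes, and 7 genes of inflammatory signalling were set beside them. Their enrichment in those cells is therefore given as a description. The data came from 1 WT library and 1 ND6 library, each of retina from male C57BL/6J mice aged 7 months. The ND6 mice carry the P25L mutation of the mitochondrial gene for subunit 6 of complex I, were derived by fusion of female embryonic stem cells, and are bred by mating mutant females with WT males, so that the mutant mtDNA comes from the mother. The WT line was bought from a vendor and kept by sib mating. Both retinas were dissociated with trypsin and papain. The number of mice behind each library is not given in the sources used here, and with 1 library per genotype no difference between them has a replicate check. All intervals are exact 95% intervals that cover counting error only.

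The WT matrix held 77958836 and the ND6 matrix 80358255 unique molecular identifiers (UMIs, one per captured transcript end). The study's limits (more than 400 UMIs, more than 200 genes, and no more than 20% of mtDNA-encoded transcripts) were applied to the barcodes and left 12529 WT and 18395 ND6 barcodes with medians of 1878 and 1416 UMIs. Microglia or macrophages were defined by at least 3 UMIs and at least 0.2% of UMIs from *C1qa*, *C1qb*, and *C1qc*, the chains of complement C1q, which retinal microglia express strongly. This C1q gate took 164 WT barcodes, or 1.31% (1.12 to 1.52), and 97 ND6 barcodes, or 0.527% (0.428 to 0.643). The gated barcodes held 604721 and 204245 UMIs, at medians of 1584.5 UMIs (range 405 to 26051) in WT and 1137 UMIs (405 to 12577) in ND6. Doublets were not removed, and 4 WT and 5 ND6 gated barcodes also passed the gate of another retinal cell type. The libraries shared 59 kept barcode sequences, none of them a gated one. The limits on genes and mtDNA fell unevenly on the libraries. Outside the C1q gate they removed 14598 WT and 4079 ND6 barcodes of more than 400 UMIs.

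The label microglia was checked against markers that the gate did not use. All 7 genes of a microglia list were detected in both libraries. *Cx3cr1*, the fractalkine receptor, had 780 UMIs in the WT gate and 392 in the ND6 gate, and *Csf1r*, the receptor that keeps microglia alive, had 776 and 395. At least 1 UMI of the list was present in 145 of the 164 WT barcodes (88.4%) and 90 of the 97 ND6 barcodes (92.8%). The 6 border macrophage genes summed to 129 and 24 UMIs, with *Lyve1* at 0 in both, and the 4 monocyte genes to 5 and 1. The 3 neutrophil and the 4 T cell genes were at 0 UMIs in both gates. The gated barcodes thus carried mainly microglial markers, although a minority of border macrophages within the gate was not separated.

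Microglia are the resident macrophages of the retina. When they sense injury or microbial products, the transcription factor NF-κB and the AP-1 factors switch on a rapid set of genes for secreted proteins. Among these are chemokines, which draw leukocytes through G protein-coupled receptors, and the cytokines TNF and IL-1, which act on neighbouring cells. *Nfkbia* encodes IκBα, the inhibitor that holds NF-κB in the cytoplasm and is itself an NF-κB target. Microglia switch on part of this program during enzymatic tissue dissociation as well.

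Of the 9 genes, 6 lie in pairs near each other. In GRCm38 (mm10), *Ccl3* (chr11:83647844-83649355, minus strand) and *Ccl4* (chr11:83662584-83664683, plus strand) are divergently oriented neighbours with 13228 bases between them. *Ccl2* (chr11:82035571-82037453) and *Ccl12* (chr11:82101845-82103400) lie on the plus strand of the same chromosome, 64391 bases apart. *Il1a* (chr2:129299610-129309972) and *Il1b* (chr2:129364570-129371139) are 54597 bases apart on the minus strand of chromosome 2. *Tnf* (chr17:35199381-35202007), *Cxcl10* (chr5:92346638-92348889), and *Nfkbia* (chr12:55489410-55492647), each on the minus strand, stand alone. *Ccl2*, *Il1a*, *Il1b*, and *Cxcl10* overlap a gene on the opposite strand. Whether the deposited counts used strand is not stated in the sources used here, so a part of their UMIs could belong to that partner.

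The RefSeq promoter windows (GRCm38.p6), from 250 bases before to 50 bases after the start of transcription, were available for 7 of the 9 genes, and those of 4 genes are printed because they show how the members differ in the 2 motifs most tied to this program. Capitals mark matches, on either strand, to the 10-base κB motif and to the AP-1 motif TGANTCA, which do not overlap here.
Ccl3 promoter, chr11:83649329-83649628, minus strand: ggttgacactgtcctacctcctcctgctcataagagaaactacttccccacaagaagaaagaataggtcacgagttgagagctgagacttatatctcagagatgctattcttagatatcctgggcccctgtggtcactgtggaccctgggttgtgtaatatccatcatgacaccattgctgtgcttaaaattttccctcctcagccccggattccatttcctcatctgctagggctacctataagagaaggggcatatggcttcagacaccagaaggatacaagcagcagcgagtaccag
Il1a promoter, chr2:129309923-129310222, minus strand: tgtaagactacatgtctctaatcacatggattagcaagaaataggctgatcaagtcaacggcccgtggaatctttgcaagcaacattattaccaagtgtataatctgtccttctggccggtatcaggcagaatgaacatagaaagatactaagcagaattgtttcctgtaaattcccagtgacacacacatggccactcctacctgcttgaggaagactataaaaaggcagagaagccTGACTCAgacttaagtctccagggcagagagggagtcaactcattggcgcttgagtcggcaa
Cxcl10 promoter, chr5:92348840-92349139, minus strand: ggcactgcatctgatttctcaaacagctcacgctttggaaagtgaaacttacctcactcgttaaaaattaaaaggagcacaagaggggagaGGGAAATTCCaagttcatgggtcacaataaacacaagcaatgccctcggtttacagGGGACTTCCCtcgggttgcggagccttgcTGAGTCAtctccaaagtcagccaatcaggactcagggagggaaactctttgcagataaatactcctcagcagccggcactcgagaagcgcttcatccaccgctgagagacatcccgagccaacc
Nfkbia promoter, chr12:55492598-55492897, minus strand: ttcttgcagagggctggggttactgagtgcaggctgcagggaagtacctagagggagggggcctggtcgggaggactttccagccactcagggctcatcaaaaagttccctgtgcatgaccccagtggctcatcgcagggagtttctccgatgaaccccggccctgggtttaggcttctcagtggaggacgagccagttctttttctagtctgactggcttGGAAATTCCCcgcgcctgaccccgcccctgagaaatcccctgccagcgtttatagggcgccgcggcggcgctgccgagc
The *Cxcl10* window held κB matches 159 and 103 bases before the start and an AP-1 match 74 bases before it. *Nfkbia* had a κB match 29 bases and *Il1a* an AP-1 match 12 bases before the start, and the *Ccl3* window held neither. The windows of *Ccl12*, *Tnf*, and *Il1b*, not printed, held neither motif either. A TATAAA box was found 29 to 32 bases before the start of *Ccl12*, *Tnf*, *Il1a*, and *Il1b*. Over all 32851 promoter windows of the table, κB matches were present in 4.51%, AP-1 matches in 7.81%, and TATAAA in 8.32%. These matches describe letters in the windows only.

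The cytokine transcripts sat almost wholly in the C1q-gated barcodes, while most *Nfkbia* UMIs lay outside them. For the 8 genes other than *Nfkbia*, 4642 of 4819 UMIs in kept WT barcodes (96.3%, 95.8 to 96.8) and 1004 of 1072 in kept ND6 barcodes (93.7%, 92.03 to 95.04) fell inside the gate. This gate held 1.11% of the kept WT UMIs and 0.324% of the kept ND6 UMIs. For *Nfkbia* the shares inside the gate were 12.9% and 3.21%.

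Levels are given as CPM, that is, UMIs per 1000000 UMIs of the barcodes named. Each transcript is counted at its 3′ end, so no division by length was made. In the WT gate, *Ccl3*, the chemokine MIP-1α, stood at 1898 CPM against 0.668 CPM in all other kept barcodes, and in the ND6 gate at 1684 against 0.271 CPM. *Ccl4*, or MIP-1β, a close relative, stood at 3471 against 1.47 CPM in WT and at 1342 against 0.367 CPM in ND6. *Nfkbia* stood at 676 against 51.1 CPM in WT and at 421 against 41.3 CPM in ND6, a 13.2-fold and 10.2-fold difference. A level at least 16-fold higher inside the gate than outside was reached by 8 of the 9 genes in each library, all but *Nfkbia*. Over all genes tested, 5.4% of 14330 in WT and 4.95% of 14900 in ND6 reached it. Since the genes were picked for this contrast, nothing is read from these counts.

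Outside the gate, the cytokine genes were near 0 in every neuronal and glial class. Of 11158 WT rod barcodes (median 1771 UMIs), 68 held a *Ccl3* or *Ccl4* UMI (0.609%), and of 15471 ND6 rod barcodes (median 1375 UMIs), 29 did (0.187%). These rod shares serve as a background for the gate. RNA free in the suspension and doublets, which were not removed, were not told apart in them. *Il1b* had 0 UMIs in the rod barcodes of either library, which allows 0.0684 CPM in WT and 0.0628 CPM in ND6. Müller glia, the radial glia of the retina and a known chemokine source after injury, held 1 UMI of the 8 genes in 54 WT barcodes and 1 in 145 ND6 barcodes. Amacrine barcodes, 31 and 57, held none. *Nfkbia* stood at 52.0 CPM in WT rods, 54.7 CPM in WT cones, 42.0 CPM in ND6 rods, and 41.6 CPM in ND6 cones. Barcodes of only 10 to 100 UMIs, which mostly sample free RNA, held *Nfkbia* at 88.4 CPM (54.0 to 137) in WT and 43.7 CPM (25.4 to 69.9) in ND6. Those levels give the make-up of free RNA and not its amount in a cell barcode. *Ccl4* stood at 39.8 CPM there and 1.35 CPM in rods in WT, and at 2.57 and 0.335 CPM in ND6. How much photoreceptor *Nfkbia* came from free RNA was not tested. The vascular gate held too few barcodes, 2 in WT and 5 in ND6, to describe endothelial cells or pericytes.

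**Figure D1:**
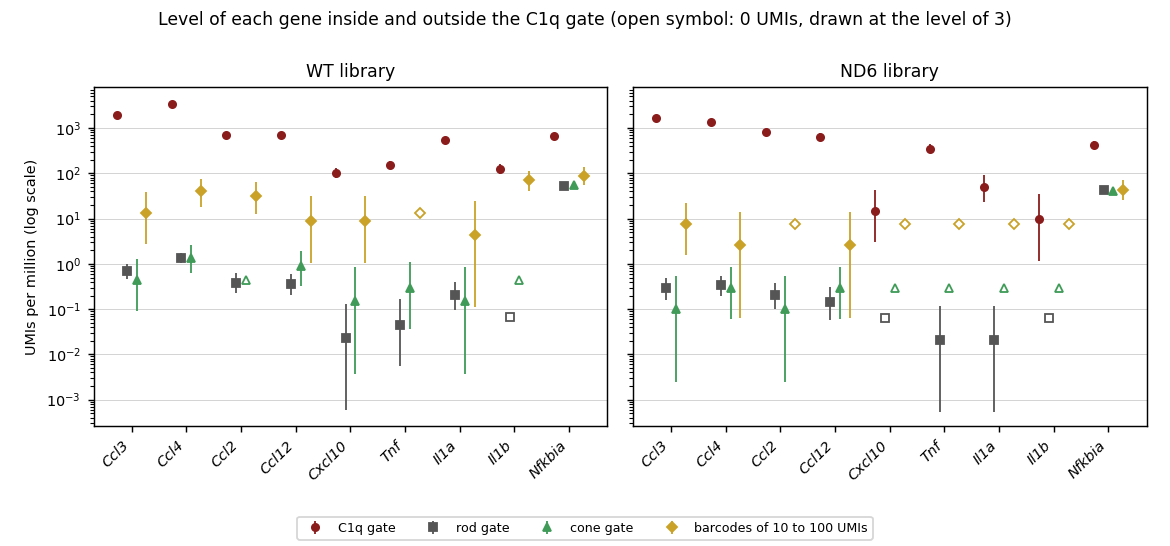
Level of each of the 9 genes in UMIs per 1000000 (log axis) in the C1q gate, the rod gate, the cone gate, and barcodes of 10 to 100 UMIs, for the WT library (left) and the ND6 library (right), with 95% Poisson intervals. The C1q gate lies above all other classes for each gene drawn in WT, and *Nfkbia* alone has rod and cone values above 40 CPM.

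The CC chemokines *Ccl3* and *Ccl4* came first in the order of levels within the gate. In WT, *Ccl4* (3471 CPM, 3324 to 3623) was followed by *Ccl3* (1898 CPM, 1790 to 2011). *Ccl2*, the monocyte attractant MCP-1, at 690 CPM, its relative *Ccl12* at 688 CPM, and *Nfkbia* at 676 CPM did not differ beyond their intervals. *Il1a* followed at 547 CPM (490 to 610). *Tnf* (155 CPM), *Il1b* (126 CPM), and *Cxcl10* (100.9 CPM), which encodes a ligand of CXCR3, came last, and each overlapped its neighbour in that order. In ND6, *Ccl3* (1684 CPM, 1511 to 1872) stood first and *Ccl4* (1342 CPM, 1187 to 1510) next. *Ccl2* (818 CPM) and *Ccl12* (646 CPM) overlapped each other, as did *Nfkbia* (421 CPM) and *Tnf* (353 CPM). *Il1a* (49.0 CPM), *Cxcl10* (14.7 CPM), and *Il1b* (9.79 CPM) were at the low end, with overlapping intervals between neighbours.

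The UMIs came from a minority of the gated barcodes. *Ccl3* or *Ccl4* was detected in 61 of 164 WT barcodes (37.2%, 29.8 to 45.1) and 29 of 97 ND6 barcodes (29.9%, 21.02 to 40.04). After each barcode was thinned to 500 UMIs, which left out 9 WT and 13 ND6 barcodes, the counts were 42 of 155 (27.1%, 20.3 to 34.8) and 17 of 84 (20.2%, 12.3 to 30.4). The intervals overlapped at both depths. The median barcode in either library had 0 UMIs of each gene. The barcode with the most *Ccl4* held 231 UMIs in WT and 69 in ND6, and the 5 highest barcodes held 36.8% of the WT and 66.4% of the ND6 *Ccl4* UMIs. For *Ccl3* these shares were 33.0% and 61.6%. Because UMIs from 1 barcode are not independent, the counting intervals on these sums are too narrow.

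**Figure D2:**
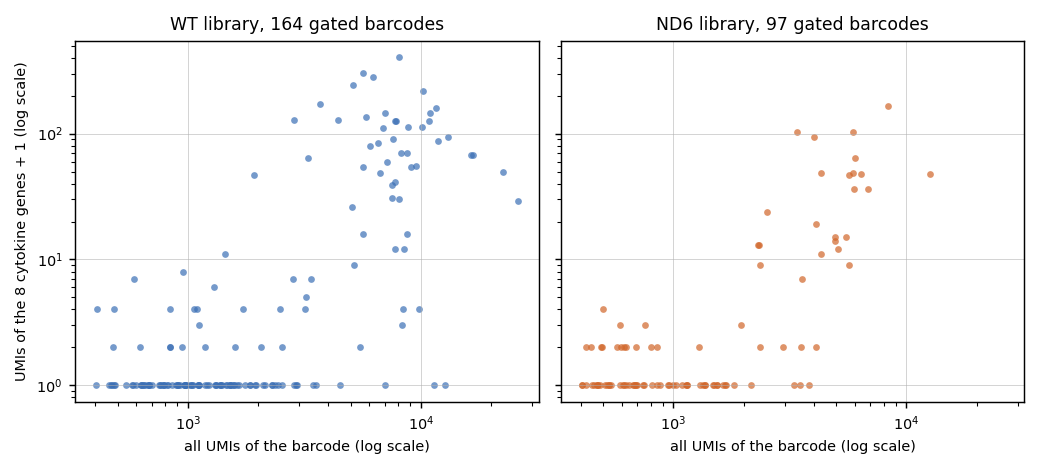
UMIs of the 8 genes other than *Nfkbia*, plus 1, against all UMIs, for each of the 164 WT (left) and 97 ND6 (right) C1q-gated barcodes, both axes on a log scale; 1 point is 1 barcode and points at 1 hold none of the 8 genes. Barcodes with more than 20 of these UMIs lie almost all above 2000 total UMIs in either library, while most shallow barcodes hold 0 to 3.

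The 9 genes tended to be detected together at full depth, and their joint detection was not computed at equal depth. None of them had a UMI in 86 WT barcodes (52.4%) and 51 ND6 barcodes (52.6%), 1 or 2 had in 25 barcodes of each library, and 3 or more had in 53 WT (32.3%) and 21 ND6 (21.6%) barcodes. In WT, the most frequent number above 1 was 7 of the 9 genes, in 19 barcodes, and 1 barcode held all 9. In ND6, 5 genes were found in 10 barcodes, and 7 genes, the highest number, in 1. Of the 57 WT barcodes with *Ccl3*, 48 (84.2%) also held *Ccl4*, against 3.74% of those without *Ccl3*. In ND6 this was 12 of 26 (46.2%) against 4.23%. *Nfkbia* accompanied *Ccl3* in 80.7% of the WT and 61.5% of the ND6 *Ccl3* barcodes, and *Il1a* did in 71.9% and 15.4%. All 13 WT barcodes with *Il1b* and all 16 with *Cxcl10* also held *Ccl3* and *Ccl4*. In ND6, the 1 barcode with *Il1b* held both, but the 2 with *Cxcl10* held no *Ccl4*.

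**Figure D3:**
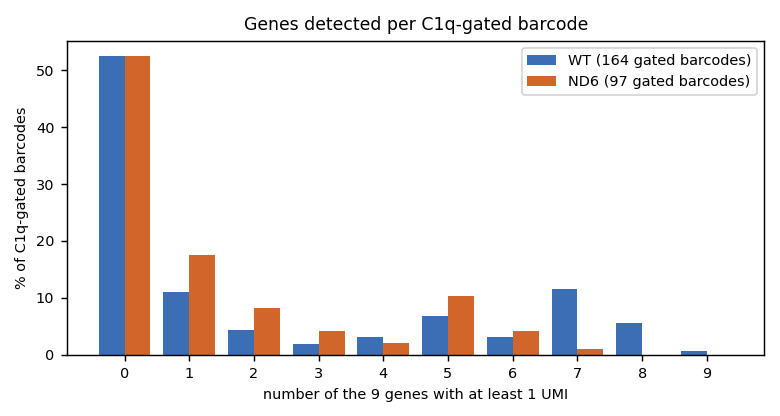
Percent of C1q-gated barcodes by the number of the 9 genes with at least 1 UMI, for the WT library (164 barcodes) and the ND6 library (97 barcodes). About the same share of both holds none of the genes, and barcodes with 7 or more are almost only WT.

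Depth and quality moved with this pattern. Barcodes with 3 or more of the genes had medians of 7621 UMIs in WT and 5507 in ND6, those with none 1075.5 and 812. The mtDNA share was 4.10% and 3.96% in the former and 12.5% and 7.68% in the latter. *Malat1*, a nuclear RNA, stood at 28939 and 28241 CPM in barcodes with 3 or more of the genes and at 10908 and 8522 CPM in those with none. The microglia list was also higher with 3 or more, at 10594 against 3812 CPM in WT and 15530 against 7187 CPM in ND6, and rod transcripts were lower, at 10835 against 27101 CPM and 7348 against 28126 CPM. In gated barcodes of at least 2000 UMIs, *Ccl3* or *Ccl4* was present in 70.8% of 72 WT barcodes (58.9 to 81.0) and 78.1% of 32 ND6 barcodes (60.0 to 90.7). The limits on genes and mtDNA had removed 104 WT and 16 ND6 barcodes that passed the C1q gate, and these held only 12 and 1 *Ccl4* UMIs. The part of depth and RNA quality in which barcodes held the cytokines was not tested beyond the thinning and the minimum of 2000 UMIs.

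Immediate early genes, the first transcripts that stimulated or dissociated cells make, were high in the barcodes that held *Ccl3* or *Ccl4*. The barcodes were divided by *Ccl3* or *Ccl4* at full depth, where the classes differed in depth (medians of 6786 UMIs with and 1121 without in WT, 4314 and 874 in ND6), and list levels were then read after thinning to 500 UMIs. The 15 genes of this list summed to 34367 CPM in 60 WT barcodes with *Ccl3* or *Ccl4* and to 2253 CPM in 95 without, and to 26138 and 1636 CPM in 29 and 55 ND6 barcodes. Among barcodes of at least 2000 UMIs the difference was smaller, 39255 against 9619 CPM in 51 and 21 WT barcodes and 28400 against 10286 CPM in 25 and 7 ND6 barcodes. When the classes were instead set after thinning, the values were 34667 against 7257 CPM in WT and 30000 against 5045 CPM in ND6. In the full-depth classes, the 17 NF-κB inhibitors and targets stood at 4767 against 611 CPM in WT and 2138 against 255 CPM in ND6. The 6 genes of cytokine mRNA decay, such as *Zfp36* (tristetraprolin), stood at 2733 against 337 CPM and 3517 against 364 CPM. The microglia list was also higher with *Ccl3* or *Ccl4*, at 9600 against 4505 CPM in WT and 17586 against 9127 CPM in ND6, and rod genes were lower, at 10300 against 21832 CPM and 9655 against 20727 CPM. Heat shock genes were higher in WT, at 6833 against 3221 CPM, while the ND6 values, 1655 against 2073 CPM, had overlapping intervals. Intervals also overlapped in both libraries for interferon-stimulated genes and for the 3 pan-immune genes *Ptprc*, *Tyrobp*, and *Fcer1g*, the latter at 4267 against 4568 CPM in WT and 4828 against 5673 CPM in ND6. These are descriptions of barcodes split by the members themselves, which share a library and its depth.

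**Figure D4:**
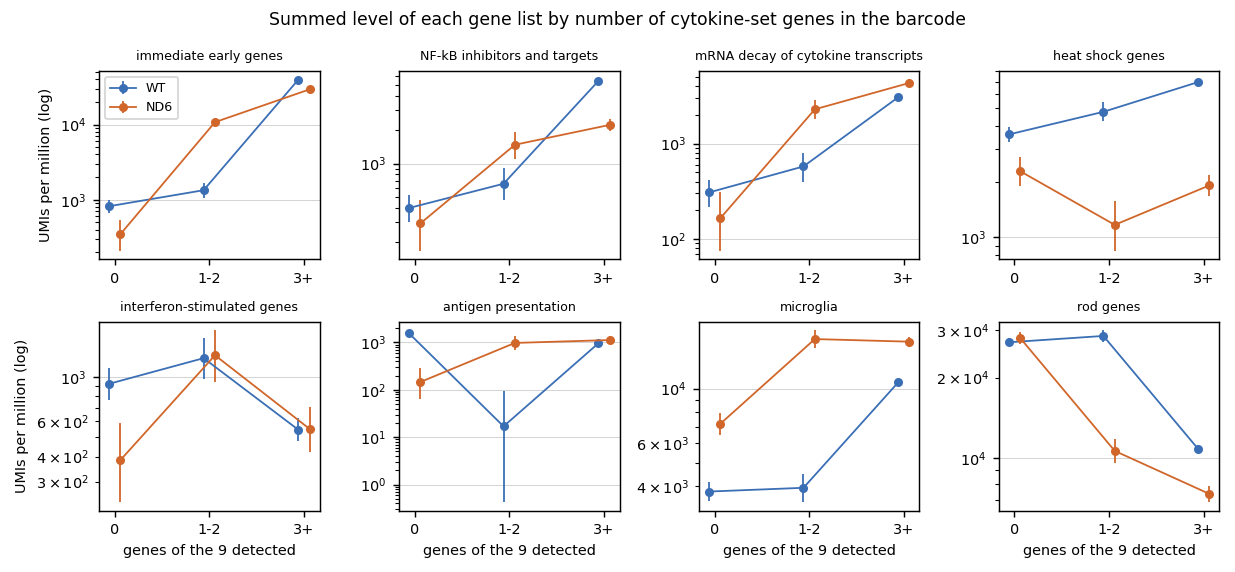
Summed level in UMIs per 1000000 (log axes, which differ between panels) of 8 gene lists in C1q-gated barcodes with 0, 1 or 2, and 3 or more of the 9 genes, for WT and ND6, with 95% Poisson intervals. The immediate early list spans 819 to 39583 CPM in WT and 347 to 29447 CPM in ND6, the heat shock list is higher in WT in all 3 classes, and rod genes are lowest in barcodes with 3 or more of the genes.

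The genes whose levels most resembled the sum of *Ccl3* and *Ccl4* across thinned barcodes were searched among 947 genes, by the smaller of the Pearson correlations in the 155 WT and 84 ND6 barcodes. The 6 most alike, members aside, were *Btg2* (r = 0.612 in WT and 0.609 in ND6), *Zfp36* (0.574 and 0.647), *Junb* (0.544 and 0.65), *Jun* (0.539 and 0.734), *Jund* (0.557 and 0.486), and *Egr1* (0.485 and 0.558). *Jun*, *Junb*, and *Jund* encode subunits of AP-1, *Egr1* a zinc finger factor induced by growth signals, and *Btg2* an antiproliferative cofactor. *Ccl2* (0.483 and 0.409), *Ccl12* (0.279 and 0.213), and *Nfkbia* (0.185 and 0.343) had lower coefficients than these. After thinning they held few UMIs, 35 in WT and 19 in ND6 for *Ccl2*, 35 and 24 for *Ccl12*, and 27 and 7 for *Nfkbia*. Each of the 6 genes stood at a higher level than these members in both gates. The part of abundance in this order was not tested. The barcodes of a library share its depth and dissociation, so the coefficients are a description.

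Several members had leading places among the genes most specific to the gate. For *Ccl3* and *Ccl4* this restates their choice, since they led a like cluster in an earlier analysis of the same barcodes. The 10 that led in WT held *Ccl3*, *Il1a*, and *Ccl4*, and among the others were *Cxcl2*, *Ptgs1*, *C3ar1*, *Cx3cr1*, *Casp4*, and *Vsir*. The 10 that led in ND6 held *Ccl3*, *Ccl2*, *Ccl4*, and *Ccl12*, beside *C1qa* and *C1qc* of the gate itself, *Cx3cr1*, *Vsir*, *Siglech*, and *Pld4*. *Cxcl2*, the neutrophil attractant that led in WT, had 176 UMIs there in only 4 barcodes, and 7 UMIs in 1 barcode in ND6.

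The comparison of ND6 with WT inside the gate asked how the mutation goes with the level of these transcripts. At full depth, in the ND6 library, *Ccl4*, *Il1a*, *Il1b*, *Cxcl10*, and *Nfkbia* were lower, *Tnf* was higher, and *Ccl3*, *Ccl2*, and *Ccl12* had intervals that included no difference. The gene with the largest WT count, *Ccl4*, had 2099 UMIs (3471 CPM) in WT and 274 (1342 CPM) in ND6, a log2 ratio of -1.37 (-1.56 to -1.19). At full depth it was detected in 52 WT (31.7%) and 15 ND6 (15.5%) barcodes, with medians of 21 and 13 UMIs in those that held it. After thinning, *Ccl4* was detected in 21.3% of WT barcodes (15.1 to 28.6) and 14.3% of ND6 barcodes (7.61 to 23.6), with overlapping intervals. Its neighbour *Ccl3* had 1148 UMIs (1898 CPM) and 344 (1684 CPM), a log2 ratio of -0.17 whose interval ran from -0.35 to 0.0024. This call depended on the barcodes used, since the interval lay below 0 under the looser gate (-0.40 to -0.05), the stricter gate (-0.46 to -0.10), thinning (-1.91 to -0.45), and without the highest barcode (-0.51 to -0.12). It was detected in 34.8% of WT and 26.8% of ND6 barcodes.

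The balance between the neighbouring genes needs no scaling by library, and it differed between the libraries at full depth. The WT gate held 1.83 *Ccl4* UMIs per *Ccl3* UMI (1.70 to 1.97), the ND6 gate 0.797 (0.677 to 0.936). Outside the gate the ratios were 2.19 (1.46 to 3.35) in WT and 1.35 (0.692 to 2.70) in ND6, with overlapping intervals. Among barcodes with at least 5 UMIs of the pair, *Ccl4* exceeded *Ccl3* in 30 of 45 in WT and 6 of 19 in ND6. *Ccl4* was at 0 in 1 of those WT barcodes and in 6 of those ND6 barcodes. These ratios rest on the deepest barcodes, since those of at least 2000 UMIs held 341 of the 344 *Ccl3* UMIs and 273 of the 274 *Ccl4* UMIs in ND6. With every barcode thinned to 500 UMIs, the ratio was 2.07 (1.59 to 2.71) in WT and 1.48 (0.822 to 2.70) in ND6, from 178 and 86 UMIs against 31 and 21, so that the ND6 value moved above 1 and the intervals overlapped.

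The interleukin-1 genes and *Cxcl10* had low counts in ND6, and their intervals overlapped one another. *Il1a*, which encodes the alarmin IL-1α, had 331 UMIs (547 CPM) in WT and 10 (49.0 CPM) in ND6, a log2 ratio of -3.48 (-4.56 to -2.59). At full depth it was detected in 43 WT barcodes (26.2%) and 5 ND6 barcodes (5.15%). After thinning, *Il1a* was detected in 10.3% of WT barcodes (6.02 to 16.2) and 1.19% of ND6 barcodes (0.0301 to 6.46), with overlapping intervals. *Il1b*, whose product must be cleaved by caspase-1, had 76 UMIs in 13 WT barcodes and 2 UMIs in 1 ND6 barcode, a ratio of 0.0779 with a log2 interval from -6.75 to -1.78. The 5 highest WT barcodes held 57 of these 76 UMIs. *Cxcl10* had 61 UMIs in 16 WT barcodes and 3 UMIs in 2 ND6 barcodes, a log2 ratio of -2.78 (-5.10 to -1.16). *Nfkbia* was lower by a smaller margin, with 409 UMIs in 54 WT and 86 UMIs in 20 ND6 barcodes and a log2 ratio of -0.68 (-1.04 to -0.35).

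*Tnf* was the one member with an interval above 0, at full depth. It had 94 UMIs (155 CPM) in WT and 72 (353 CPM) in ND6, a log2 ratio of 1.18 (0.72 to 1.64), yet a similar share of barcodes held it, 21.95% (15.9 to 29.1) in WT and 16.5% (9.73 to 25.4) in ND6. The 5 highest ND6 barcodes held 73.6% of its UMIs there. Thinned to 500 UMIs per barcode, 8 and 6 UMIs were left and the interval included 0, with a log2 ratio of 0.47 (-1.34 to 2.19), as it then did for *Nfkbia* (-2.51 to 0.17) and *Cxcl10* (-7.00 to 1.72). *Ccl2*, with 417 and 167 UMIs, had a log2 ratio of 0.25 (-0.02 to 0.51). Its interval lay above 0 at minimums of 1000 UMIs (0.10 to 0.63) and 2000 UMIs (0.20 to 0.74) and without the mtDNA limit (0.09 to 0.62). Scaled by the microglia list, the *Ccl2* interval lay below 0 instead (-0.67 to -0.14). *Ccl12*, with 416 and 132 UMIs, had a log2 ratio of -0.09 (-0.38 to 0.20). Its interval lay below 0 without the highest barcode (-0.76 to -0.06) and scaled by the microglia list (-1.03 to -0.45). Both were detected in like shares of barcodes, 41 WT and 21 ND6 barcodes for *Ccl2* and 48 and 28 for *Ccl12*.

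Of the 9 genes, 1 was at least 2-fold higher and 4 at least 2-fold lower in the ND6 gate, where 5.94% and 10.5% of 5627 genes with at least 20 UMIs were. The median log2 ratio was -0.68 over the 9 genes and -0.02 over the 5627. As shares of all 9 genes' UMIs, *Ccl4* made up 41.6% in WT and 25.1% in ND6, *Ccl3* 22.7% and 31.6%, *Il1a* 6.55% and 0.917%, and *Tnf* 1.86% and 6.61%. The choice of barcodes and of scale moved the ratios. In barcodes of at least 2000 UMIs *Ccl3* came to 0.06 and *Ccl4* to -1.14, and scaled by the microglia list *Ccl3* came to -0.82, *Ccl2* to -0.40, *Ccl12* to -0.74, and *Tnf* to 0.53.

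**Figure D5:**
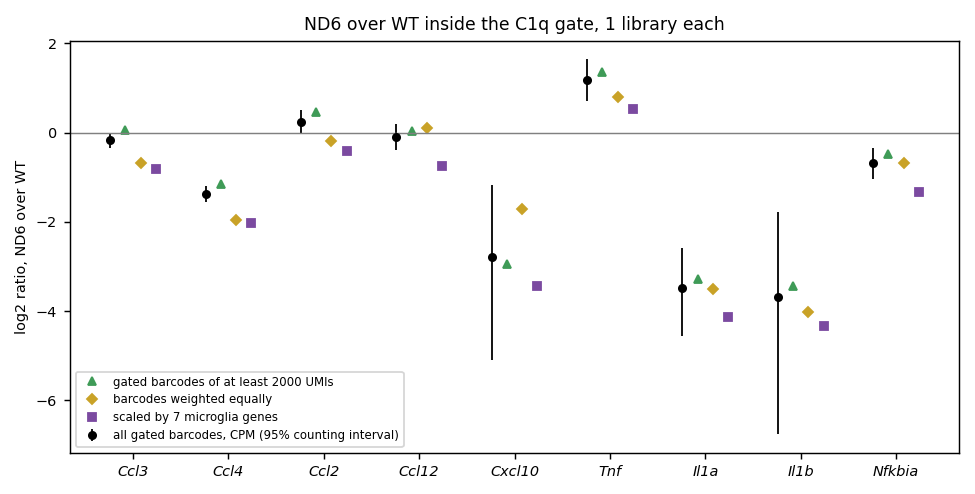
Log2 ratio of ND6 over WT in the C1q gate for each of the 9 genes, 1 library per genotype. Black points with 95% counting intervals use all gated barcodes; the other symbols use barcodes of at least 2000 UMIs, equal weight per barcode, or scaling by 7 microglia genes. *Ccl4*, *Cxcl10*, *Il1a*, *Il1b*, and *Nfkbia* lie below 0 and *Tnf* above 0 under all 4, while *Ccl3*, *Ccl2*, and *Ccl12* lie on both sides.

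Other gene lists of the same pathway showed which parts went with the members. Over all 5627 genes with at least 20 UMIs, 512 had intervals below 0 in the ND6 gate and 460 above. Of 13 measured NF-κB inhibitors and targets, 10 had intervals below 0 in the ND6 gate and none above, with a median log2 ratio of -1.22. *Nfkbiz*, an atypical IκB, had 581 UMIs in WT and 59 in ND6 (log2 ratio -1.73, -2.15 to -1.35). *Icam1* had 301 and 78 (-0.38, -0.76 to -0.02), and the activation antigen *Cd83* had 347 and 14 (-3.07, -3.95 to -2.30). Among 10 measured NF-κB subunits and kinases, 4 had intervals below 0 and none above, with a median of -1.09. The subunit gene *Rel* had 212 and 15 UMIs and *Nfkb1* 162 and 15. Of 8 further chemokines, 4 had intervals below 0 and none above, with a median of -1.11. These 4, *Ccl7*, *Ccl24*, *Cxcl2*, and *Pf4*, were held by only 4, 2, 4, and 8 of 164 WT barcodes. Counting intervals are therefore too narrow for them, and *Pf4* is also on the border macrophage list. *Ccl7*, which lies in the same chemokine family as *Ccl2*, had 141 UMIs in 4 WT barcodes and 22 UMIs in 1 ND6 barcode.

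Genes that process or receive the cytokines did not share 1 direction. *Nlrp3*, the inflammasome sensor, had 107 UMIs in WT and 5 in ND6 (log2 ratio -2.85, -4.51 to -1.59), and *Casp4*, an inflammatory caspase, 114 and 5 (-2.94, -4.60 to -1.68). The adaptor *Pycard* was higher in ND6, with 88 and 46 UMIs (0.63, 0.08 to 1.16), as was the pore-forming *Gsdmd* with 24 and 17 (1.07, 0.08 to 2.03). *Adam17* had 42 and 13 UMIs, with an interval that included 0 (-0.13, -1.15 to 0.80). The median was 0.41 over 4 measured receptors and 0.06 over 4 other cytokines, of which *Tgfb1* had 100 and 35 UMIs (0.05, -0.55 to 0.62). *Il6* had 1 UMI in each gate and *Il10* none. *Zfp36* (665 and 302 UMIs, 0.43) and *Zfp36l1* (339 and 172 UMIs, 0.59), whose products destabilise cytokine mRNAs, had intervals above 0, with a median of 0.23 over 6 genes of mRNA decay.

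Lists outside the cytokine pathway differed between the gates as well. Of 15 immediate early genes, 14 were lower in ND6 and *Btg2* was higher (0.72, 0.56 to 0.87), with a median of -0.91. Over all 5627 genes with at least 20 UMIs, 2916 were lower and 2711 higher. *Jun*, at 4286 CPM in WT and 3559 CPM in ND6, had a log2 ratio of -0.27, and *Jund*, at 3433 and 1415 CPM, one of -1.28. All 6 heat shock genes were at least 2-fold lower in ND6, where 10.5% of the 5627 genes were. Their median was -2.60 and the log2 ratio of their sum -1.68. *Hsp90aa1*, with the most UMIs, had 1363 in WT and 206 in ND6 (-1.16), *Hspa8* had 1270 and 123 (-1.80), and *Dnajb1* had 475 and 49 (-1.71). The inducible *Hspa1a*, with the largest difference of the list, had 394 UMIs in WT and 3 in ND6. Of the 7 microglia genes, 5 had intervals above 0 in the ND6 gate and none below, with *Tmem119* at 0.01 (-0.28 to 0.30), a median of 0.59, and a summed level of 8521 CPM in WT and 13366 CPM in ND6. The border macrophage sum was 213 and 118 CPM. None of 6 measured interferon-stimulated genes reached 2-fold, and their median was -0.13. The antigen presentation genes were divided, with *H2-Aa* (0.58, 0.04 to 1.11) and *H2-Ab1* (0.80, 0.28 to 1.30) higher and *Cd74* lower (-0.98, -1.37 to -0.62) in ND6, a median of 0.58 and sums of 991 and 837 CPM. These rest on few barcodes, 12 WT and 4 ND6 for *H2-Aa*, 12 and 11 for *H2-Ab1*, and 34 and 12 for *Cd74*. The share of barcodes with *H2-Aa* was lower in ND6, at 4.12% against 7.32% in WT. The part of these lists in the differences between the libraries was not tested, and genotype, mouse, dissociation, and library cannot be told apart.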

How the data were processed

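Droplet-based 3′ single-cell libraries of whole retina were analysed, 1 WT and 1 ND6. Per the labels, the authors used Cell Ranger 3.0.2 and the mm10 genome, and deposited raw UMI counts per gene and barcode without normalization, filter, or doublet removal. The limits on UMIs, genes, and mtDNA follow the study's methods. Its integration and regressions were not repeated. Cell classes were set by summed UMIs of marker genes (at least 3 UMIs and 0.2% of the barcode, 2% for rods) in place of clusters.

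Counts were summed over gated barcodes and scaled to UMIs per 1000000 (CPM). With 1 library per group no test was made. Poisson, Clopper-Pearson, and conditional binomial intervals at 95% (scipy 1.17.1, numpy 2.4.6, pandas 2.3.3, Python 3.11.15) cover counting error only. They were tested on data simulated from the counting models they assume. That test cannot show how they hold where UMIs cluster in few barcodes. UMIs collapse PCR copies, but those of 1 cell are not independent. Ratios were computed for genes of at least 20 UMIs in both gates together. In the counts of 2-fold genes and the medians, a fraction of 1 count was put in for a count of 0. For levels, 3 counts stood for a count of 0. Thinning drew 500 UMIs per barcode. No column of values was left unused.

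The members and gene lists were chosen with earlier results of these data known. Genes named were the 9 members and genes among those of highest count in each list (*Btg2*, *Jun*, *Junb*, *Jund*, and *Egr1* also by likeness). Also named were the 10 most raised in the gate among genes of at least 100 UMIs. The 6 most like *Ccl3* plus *Ccl4* came from genes detected in at least 5% of gated barcodes of both libraries. *Hspa1a*, *Gsdmd*, *Tmem119*, *Lyve1*, and *Ccl24* were named outside the rule on counts. *Il6* and *Il10* were named after their values were seen. Alternatives were a looser and a stricter gate, other limits on UMIs and mtDNA, thinning, equal weight per barcode, leaving out the highest barcode, and other scalings. Promoter windows came from RefSeq (GRCm38.p6), and gene positions from GENCODE, where all 9 gene identifiers matched. Some genes that these rules name are not reported here.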

Additional observations from a re-analysis of the deposited data

How the results depend on the processing

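No paired analysis was possible because the genotypes share only replicate number 1, which gives a single pair. With 1 library per genotype no library could be left out. Over the 12 alternatives that gave a value, the log2 ratio ran from -2.02 to -1.14 for *Ccl4*, -4.13 to -3.27 for *Il1a*, -3.87 to -1.44 for *Cxcl10*, -1.33 to -0.48 for *Nfkbia*, 0.47 to 1.37 for *Tnf*, -1.15 to 0.06 for *Ccl3*, -0.40 to 0.47 for *Ccl2*, and -0.74 to 0.34 for *Ccl12*. *Il1b* ran from -4.33 to -3.43 over 10, since thinning and leaving out the highest barcode left no ND6 UMI. The median over the members was -1.11 after thinning and -1.33 scaled by the microglia list. Genes at least 2-fold higher in ND6 numbered 81 at a minimum of 50 UMIs and 1254 at 5 (334 at 20), and those at least 2-fold lower 220 and 1539 (592 at 20). The share of gated barcodes with *Ccl3* or *Ccl4* was 50% in WT and 40.3% in ND6 under the stricter gate, 50.9% and 51.9% at a minimum of 1000 UMIs, 27.1% and 20.2% thinned, and 70.8% and 78.1% at 2000 UMIs, an alternative added, like those using the microglia list, after seeing the data. It was 25.5% in WT and 26.5% in ND6 without the mtDNA limit. The gate itself took 0.862% of WT and 0.364% of ND6 barcodes when stricter, 1.04% and 0.365% at 1000 UMIs, and 1.52% of WT when looser. The WT gate held 63.3% of all member UMIs, 61.6% when stricter, 60.4% without the mtDNA limit, and 62.0% without barcodes of another gate. The intervals of the genotypes overlapped under each setting for the share of gated barcodes with *Ccl3* or *Ccl4*. No order of that share was established. For the share of barcodes in the stricter gate they did not overlap, at 0.708 to 1.04% in WT and 0.282 to 0.462% in ND6. The cause of these shifts was not tested. *Il1b* and *Cxcl10*, with 2 and 3 ND6 UMIs, are limited by counts.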

Other observations

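Barcodes too shallow for a cell held *Il1b* in the WT library. In 7324 WT barcodes of 10 to 100 UMIs, 13 barcodes held 16 *Il1b* UMIs, or 70.8 CPM (40.4 to 115), while kept WT barcodes outside the C1q gate held 0. *Ccl4*, with 2099 UMIs in the WT gate against 76 of *Il1b*, had 9 UMIs in the same shallow barcodes, and *Il1a* had 1. In 8621 ND6 barcodes of 10 to 100 UMIs *Il1b* was at 0, which allows 7.71 CPM. The neutrophil genes *S100a8*, *S100a9*, and *Retnlg* were at 0 UMIs in the C1q gate of both libraries. That gate selects for C1q transcripts, and values of these genes in the shallow barcodes are not given here. The origin of the *Il1b* UMIs was not tested, and the pattern was noticed in these data.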
